A study of Homo sapiens with 12 samples.

Results

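Collagens, extracellular matrix glycoproteins, matrix proteoglycans and the enzymes that crosslink or process them are encoded by the 43 genes described here. They were taken by gene symbol from a table of 58735 genes, and each symbol had a single row. Of the 43 genes, 38 reached a mean of 0.5 FPKM in at least 1 group and were tested, among 14577 genes in all. FPKM is the number of sequenced fragments scaled to gene length and to a factor for each library, so levels can be compared between genes as well as between libraries. The 5 genes below that level were COL8A1, COL5A2, FBN1, BGN and LOXL4.

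The cells were HaCaT, an immortalized human keratinocyte line, and RNA was sequenced from 12 libraries in 4 groups of 3. The group Control-siRNA was transfected with a control siRNA, and the group PHGDH-siRNA with an siRNA against PHGDH, which encodes the first enzyme of serine synthesis from glucose. The groups Control-siRNA+Mix and PHGDH-siRNA+Mix received the same siRNAs and were also stimulated for 24 h with a preparation the labels call mix, whose contents the labels do not give. Every library came from transfected cells of 1 line, so no comparison here is with untransfected cells or with a second line. The labels do not say that replicates came from separate cultures, and the p-values then measure only the spread between these libraries.

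Keratinocytes sit on a basement membrane, a sheet in which a laminin network and a type IV collagen network are linked by nidogens and heparan sulfate proteoglycans. Anchoring fibrils of type VII collagen tie that sheet to the dermis below, while fibrillar collagens and elastic microfibrils are made mainly by dermal fibroblasts. Keratinocytes also secrete fibronectin, tenascin C, thrombospondin and TGFBI protein, glycoproteins that cells bind through integrins and that are well known from healing wounds.

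PHGDH stood at 36.5, 56.2 and 45.8 FPKM in Control-siRNA and at 23.7, 20.1 and 16.9 FPKM in PHGDH-siRNA. With Mix it stood at 31.9, 31.2 and 26.6 FPKM under the control siRNA and at 19.1, 13.3 and 11.5 FPKM under the PHGDH siRNA. The groups did not overlap, and averaged over both Mix conditions PHGDH fell by 1.08 on the log2(FPKM + 1) scale (SE 0.146, adjusted p = 0.0197 by limma), although neither single comparison passed (adjusted p = 0.128 without Mix and 0.200 with it). The averaged test takes the libraries as independent. Reads recovered per library ranged from 16403845 to 20901128. All 8 keratinocyte markers on the list averaged 1 FPKM or more. Of 10 fibroblast markers only TWIST2 did, at 5.21 to 7.94 FPKM, DPT was at 0 in every library, and COL1A2 did not exceed 0.0154 FPKM. No endothelial, melanocyte or leukocyte marker averaged 1 FPKM.

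Fibronectin and the basement membrane and adhesive glycoproteins made up most of the matrix transcripts, and fibrillar collagens were scarce. Over the mean of the 4 groups FN1 (fibronectin) was highest at 175.8 FPKM, followed by TGFBI (an integrin-binding matrix glycoprotein) at 138.9 FPKM and THBS1 (thrombospondin 1, which binds and activates latent TGF-beta) at 67.8 FPKM. AGRN (the heparan sulfate proteoglycan agrin) stood at 55.7 FPKM, EFEMP1 (fibulin 3, of elastic fibers) at 54.9 FPKM and LAMC1 (the laminin gamma 1 chain) at 42.6 FPKM. The ranges of AGRN and EFEMP1 over the libraries overlapped, and 13 of the 43 genes reached 10 FPKM in a group. Another 24 lay between 1 and 10 FPKM in their highest group. COL1A1, a chain of the main dermal collagen, ran from 0.485 to 1.44 FPKM over the 12 libraries. The sum over all 43 genes was 690 ± 15.7 FPKM (SD, n = 3) in Control-siRNA, 754 ± 21.9 in Control-siRNA+Mix, 747 ± 62.9 in PHGDH-siRNA and 846 ± 65.9 in PHGDH-siRNA+Mix. The map of levels by library shows the genes in this order of roles. In these bulk samples fewer cells of a kind and less RNA per cell cannot be told apart.

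**Figure D1:**
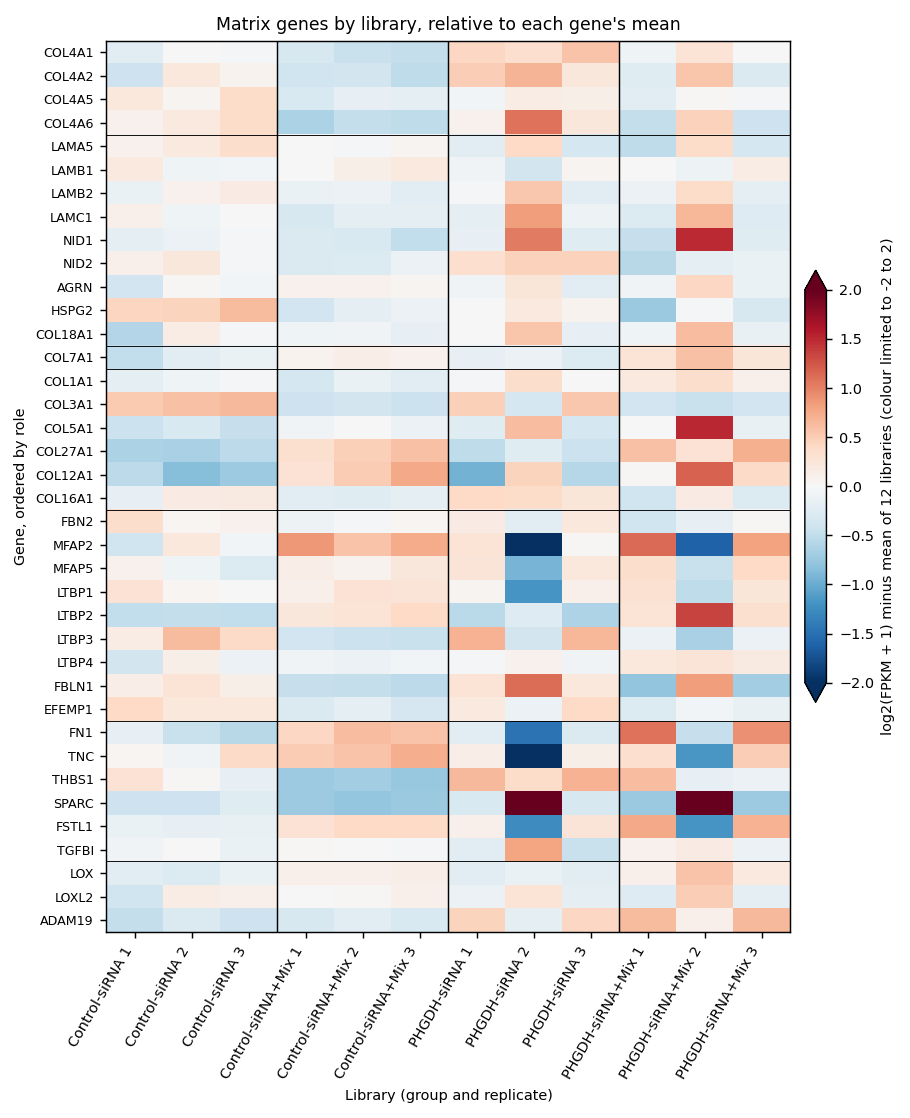
Levels of the 38 tested matrix genes in each of the 12 libraries, each gene (row) drawn as its log2(FPKM + 1) value minus its mean over the libraries, with genes grouped by role and libraries (columns) by group. In both groups with PHGDH siRNA, replicate 2 stands apart from replicates 1 and 3, with SPARC high and FSTL1, TNC and MFAP2 low.

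Of the network collagens of the basement membrane, COL4A1 and COL4A2 encode the chains of the type IV collagen found in most basement membranes, and COL4A5 and COL4A6 encode chains of a second network found in skin. Each of these gene pairs lies head to head, read in opposite directions from start sites 127 and 380 bases apart. The 300-base promoter windows of the paired genes therefore share sequence, and the shared stretches are shown because they are the same DNA for both genes of a pair. The first is chr13:110307108-110307333 and the second chrX:108439588-108439708, both on the plus strand of GRCh38.p14 as RefSeq gives it. They are printed 5′ to 3′ with CCAAT boxes (CCAAT, or ATTGG on the other strand) and GC boxes (GGGCGG, or CCGCCC on the other strand) in capitals.
COL4A2 and COL4A1: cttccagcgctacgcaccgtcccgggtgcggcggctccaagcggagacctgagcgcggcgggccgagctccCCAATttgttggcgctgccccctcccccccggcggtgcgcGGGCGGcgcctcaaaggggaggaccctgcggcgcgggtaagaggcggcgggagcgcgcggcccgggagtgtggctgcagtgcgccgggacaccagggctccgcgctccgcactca
COL4A5 and COL4A6: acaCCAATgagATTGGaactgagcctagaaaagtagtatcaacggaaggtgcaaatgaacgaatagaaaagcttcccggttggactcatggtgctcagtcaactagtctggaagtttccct
The stretch of 226 bases shared by COL4A2 and COL4A1, which spans both start sites, held 1 CCAAT box and 1 GC box and was 76.5% G or C. The stretch of 121 bases shared by COL4A5 and COL4A6, which lies between their start sites, held 2 CCAAT boxes, 1 on each strand, no GC box, and was 44.6% G or C. The gene models of COL4A1 and COL4A2 also overlap at their starts, and use of strand in counting is not given in the sources used here, so reads in the overlap could be assigned to either gene.

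Across the matrix genes, 35 had an entry in the RefSeq promoter table, with 45 windows that each run from 250 bases before to 50 bases after a start site. On either strand a GC box was present in 34 of the 45 windows (75.56%), against 44.95% of 35116 windows in the whole table. A CCAAT box was present in 11 of the 45 (24.44%, against 34.61%). The AP-1 motif TGANTCA was present in 1 window, that of MFAP2 (2.222%, against 7.709%), and TATAAA in 2 windows, those of COL7A1 and COL18A1 (4.444%, against 11.53%). None of these motifs contains another, and such a match describes the sequence and is not a measured binding site. COL8A1, EFEMP1, MFAP5, COL5A2, AGRN, COL3A1, LOXL2 and COL1A1 had no entry.

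In both groups with PHGDH siRNA the library numbered 2 stood apart from the other 10 libraries, and many matrix genes took part. On the second principal component of all tested genes they lay at 50.02 and 46.3, and the other 10 libraries between -29.6 and 14.4. Of the 38 tested matrix genes, 18 (47.4%) differed from the mean of replicates 1 and 3 by more than 0.5 on the log2(FPKM + 1) scale in the same direction in both groups, 10 higher and 8 lower. The same was true of 3243 of all 14577 genes (22.2%). For replicate 2 of the groups with control siRNA it was true of 0 matrix genes and of 94 of all 14577 genes.

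SPARC, which encodes a calcium-binding glycoprotein that binds collagen, had the widest gap on the log2(FPKM + 1) scale. It stood at 15.4 FPKM in replicate 2 of PHGDH-siRNA against 0.438 and 0.422 FPKM in replicates 1 and 3. With Mix it stood at 7.09 FPKM in replicate 2 against 0.0639 and 0.0783 FPKM in replicates 1 and 3. The 6 libraries with control siRNA lay between 0.0338 and 0.504 FPKM, so SPARC passed the filter on low values only through those replicates, which held 1425 and 634 reads of it.

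The other genes that stood higher in these libraries included some of the basement membrane genes. COL4A1, COL4A2, COL4A5, NID2, AGRN and HSPG2 did not differ by more than 0.5 in both groups. LAMB1 was lower in replicate 2 of both, by 0.36 without Mix and by 0.17 with it. NID1 (nidogen 1, which links laminin to type IV collagen) was at 2.36 and 3.58 FPKM against 0.152 to 0.605 FPKM in the other 10 libraries. COL5A1, a chain of a minor fibrillar collagen, was at 1.43 and 3.53 FPKM against 0.151 to 0.598 FPKM. LAMC1 was at 74.0 and 66.0 FPKM against 32.6 to 44.1 FPKM. Each of these 3 genes was therefore higher in both libraries than in any other, and COL4A6, LAMA5, LAMB2, COL18A1, COL12A1 and FBLN1 complete the 10. TGFBI was at 235 FPKM in replicate 2 of PHGDH-siRNA against 116 and 99.3 FPKM, but at 152 FPKM with Mix against 144 and 125 FPKM.

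Of the 8 genes that stood lower, 7 encode glycoproteins or microfibril proteins and the other is ADAM19, a metalloprotease. MFAP2, a microfibril glycoprotein, was at 0.0179 FPKM (1 read) and 0.964 FPKM (52 reads) against 3.56 to 12.2 FPKM in the other 10 libraries. FSTL1, the secreted glycoprotein follistatin-like 1, was at 0.102 and 0.173 FPKM against 1.36 to 3.48 FPKM. TNC (tenascin C) was at 0.195 and 1.18 FPKM against 3.66 to 7.09 FPKM. FN1 was at 55.9 and 113 FPKM, where replicates 1 and 3 were at 136 and 129 FPKM without Mix and at 336 and 296 FPKM with it. MFAP5, LTBP1 and LTBP3 complete the 7, and COL8A1, which was not tested, had 0 reads in both libraries against 17 to 38 in the others. The keratinocyte marker sum moved with these libraries, at 6680 and 7702 FPKM against 1864 to 5083 FPKM in the other 10, with KRT14 at 2986 and 2737 FPKM. Not every marker on that list did. SFN, at 1260 and 2128 FPKM, lay within the 483 to 2445 FPKM of the other libraries. CDH1 was lower than in replicates 1 and 3, at 57.5 against 65.2 and 68.2 FPKM without Mix and at 67.2 against 77.6 and 74.8 FPKM with it. The summed markers of a mesenchymal shift were at 14.8 and 15.4 FPKM against 22.5 to 40.0 FPKM. Of the 7 summed markers only CDH2 and SNAI2 averaged 1 FPKM or more. VIM was at no more than 0.290 FPKM in any library. CDH2 was at 3.21 and 1.71 FPKM against at least 9.94 FPKM in the other 10 libraries. SNAI2, at 11.4 and 13.4 FPKM, lay within the 9.98 to 25.95 FPKM of the other libraries. The part of these marker levels in the matrix values was not tested. Because the libraries widen the spread of the groups with PHGDH siRNA, results are given with and without them. The pair was singled out from these same data, so calls without it depend on that choice.

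**Figure D2:**
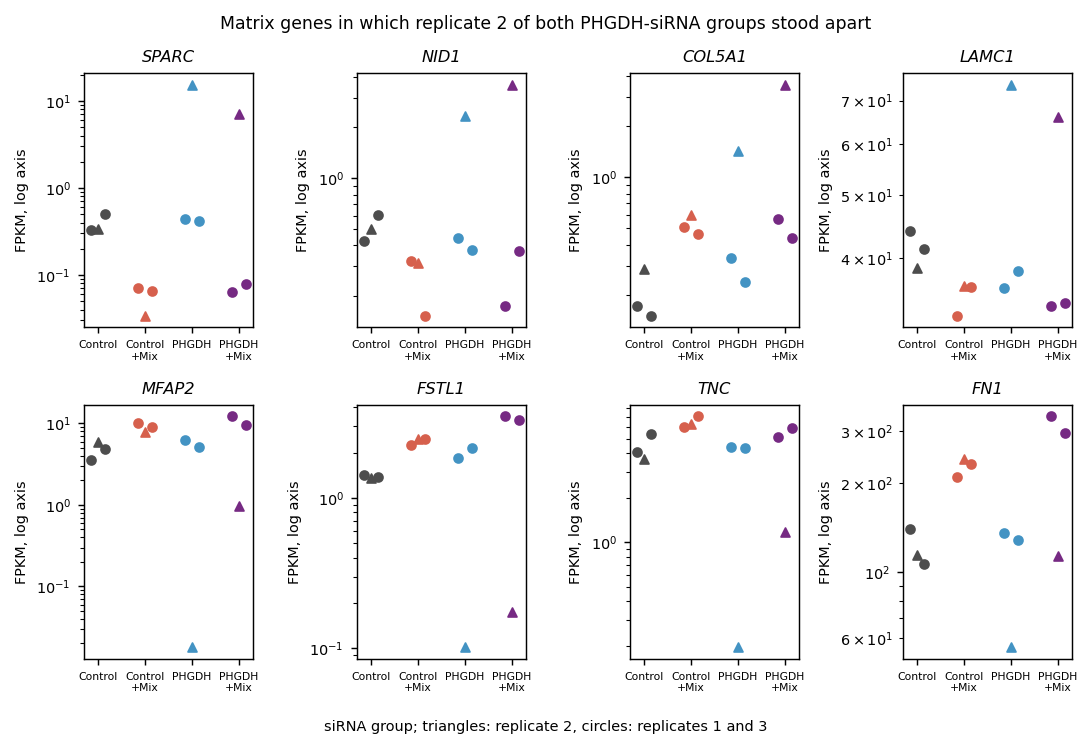
FPKM on a log axis in the 12 libraries for SPARC, NID1, COL5A1, LAMC1, MFAP2, FSTL1, TNC and FN1, each point a library and replicate 2 of every group a triangle. The triangles of the groups with PHGDH siRNA are above the rest for SPARC, NID1, COL5A1 and LAMC1. They are below the rest for MFAP2, FSTL1 and TNC, with MFAP2 as low as 0.0179 FPKM.

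Mix was compared with no Mix under each siRNA to find which matrix genes respond to the stimulation. Under control siRNA, COL27A1, which encodes a fibrillar collagen known from cartilage, rose, and COL3A1, THBS1, HSPG2, EFEMP1 and COL4A5 fell. Under PHGDH siRNA, LTBP2, COL27A1 and COL7A1 rose and NID2 fell. Thus 6 of 38 genes passed under control siRNA, where 9.54% of all tested genes did. Of these 1 went up and 5 went down, against 5.62% and 3.92% of all genes. Under PHGDH siRNA 4 of 38 passed, where 8.86% of all tested genes did. Of these 3 went up and 1 went down, against 5.22% and 3.64% of all genes. An unadjusted p under 0.05 was found for 15 of 38 genes under control siRNA (22.1% of all genes) and for 14 of 38 under PHGDH siRNA (22% of all genes). Libraries of the 2 groups did not overlap for 27 of 38 genes under control siRNA (37.8% of all tested genes) and for 10 of 38 under PHGDH siRNA (21.5% of all tested genes). The median change over the 38 genes was -0.05 under control siRNA and 0.02 under PHGDH siRNA on the log2(FPKM + 1) scale, and 0.00 over all genes in both. The median size of change regardless of sign was 0.34 and 0.42 for the matrix genes and 0.21 and 0.22 for all genes.

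Without the pair of replicate 2 libraries, 17 of 36 genes passed under control siRNA (8 up, 9 down, against 20.8% of all genes) and 16 of 36 under PHGDH siRNA (7 up, 9 down, against 15.1% of all genes). The genes that rose in both arms were then COL12A1, COL27A1, COL7A1, FN1, FSTL1, LTBP2 and MFAP2, which is 87.5% of those that rose under control siRNA and 100% of those under PHGDH siRNA. The genes that fell in both were COL3A1, COL4A1, COL4A6, EFEMP1, FBLN1, HSPG2 and LTBP3, 77.78% of the genes that fell in each arm. Of these, COL3A1 passed the filter on low values only through the groups without Mix, where it was high. TNC rose and COL4A5 and THBS1 fell under control siRNA only, and COL16A1 and NID2 fell under PHGDH siRNA only, without a difference between the arms that passed a test. The arms have no library in common but share 1 estimate of the spread. Same-numbered libraries of the groups with PHGDH siRNA deviated together, and with the replicate number as a block there 17 of 38 genes passed under PHGDH siRNA (8 up, 9 down, against 22.5% of all genes). Those 17 include LOX and SPARC, which passed the filter on low values only through replicate 2 libraries. With FPKM scaled to each library's total in place of the deposited scaling, the calls were 1 up and 5 down under control siRNA and 3 up and 3 down under PHGDH siRNA. Over all genes that scaling changed the calls under control siRNA from 819 up and 572 down to 708 up and 780 down. Under PHGDH siRNA it changed the calls over all genes from 761 up and 530 down to 618 up and 852 down.

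The count under control siRNA depended on single libraries, and so did the calls over all genes. The matrix count fell from 6 to 3 without replicate 1 or replicate 2 of Control-siRNA and to 1 without replicate 3. It fell to 2 without replicate 1 or 2 of Control-siRNA+Mix and to 1 without replicate 3. Over all genes the calls fell from 1391 to 1223, 903 and 687 without replicates 1, 2 and 3 of Control-siRNA. Without those of Control-siRNA+Mix they fell to 713, 726 and 658. Under PHGDH siRNA the count of 4 fell to 2 without replicate 1 or 3 of PHGDH-siRNA, and it rose to 8 without replicate 2 of that group and to 10 without replicate 2 of its Mix group. Calls over all genes went from 1291 to 761 and 665 without replicates 1 and 3 of PHGDH-siRNA. Without replicate 2 of PHGDH-siRNA or of its Mix group they were 1644 and 1474. COL27A1 passed in both arms, and NID2 under PHGDH siRNA, whichever of the 12 libraries was left out. NID2 overlaps RTRAF, a gene at a higher level, in the annotation. Without the filter on low values, the calls left were COL27A1 and COL3A1 under control siRNA and COL27A1 and NID2 under PHGDH siRNA. A fit of the PHGDH-siRNA groups alone left none, and 254 calls over all genes, with COL27A1 at an adjusted p of 0.0520.

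**Figure D3:**
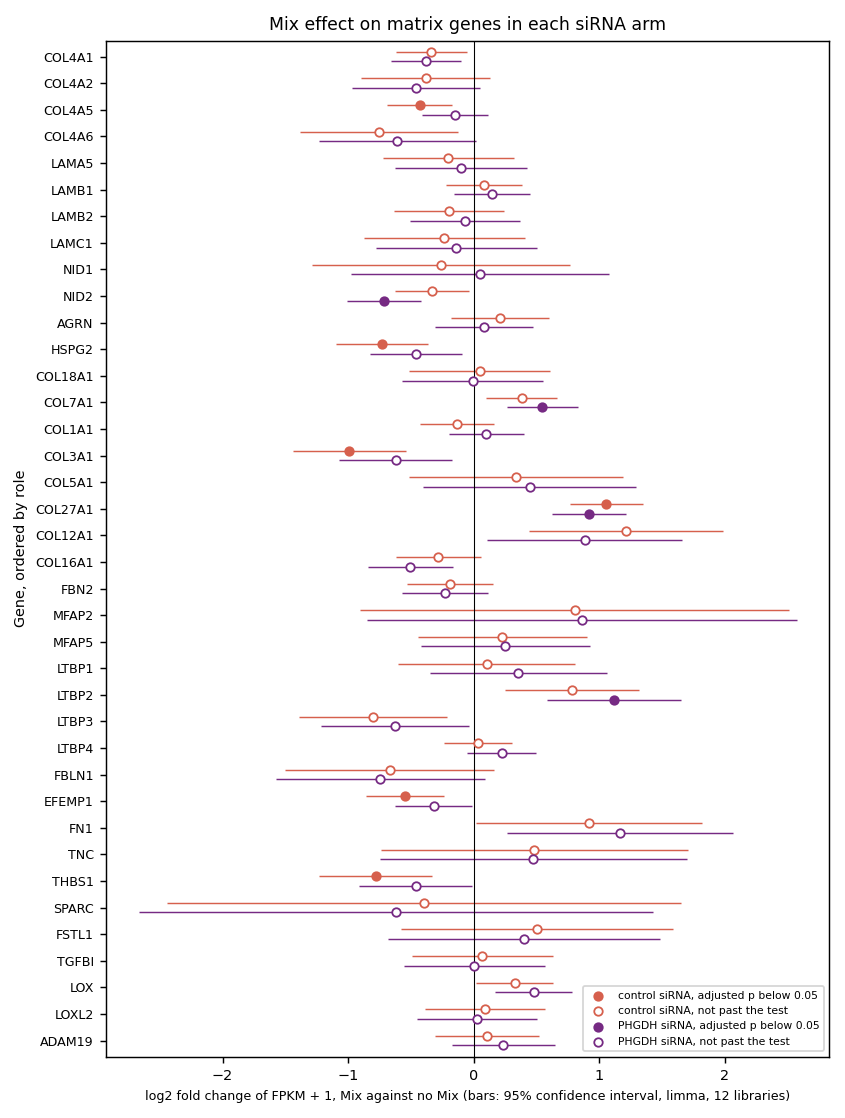
Change with Mix of the 38 tested matrix genes on the log2(FPKM + 1) scale with 95% confidence intervals, under control siRNA and under PHGDH siRNA, with genes grouped by role and filled points for genes that passed the test. The filled points above 0 are COL27A1 in both arms and LTBP2 and COL7A1 under PHGDH siRNA, and intervals are widest for SPARC and MFAP2.

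Of 4 tested type IV collagen genes, COL4A5 passed with Mix under control siRNA and none under PHGDH siRNA. COL4A5 stood at 5.30, 4.66 and 6.01 FPKM in Control-siRNA and at 3.41, 3.85 and 3.79 FPKM in Control-siRNA+Mix. No library with Mix reached the lowest one without it, and COL4A5 fell by 0.43 (SE 0.119, adjusted p = 0.0457 by limma). That call was lost without any 1 of 8 libraries (replicates 1 and 3 of Control-siRNA, all 3 of Control-siRNA+Mix, replicates 1 and 3 of PHGDH-siRNA, and the third of PHGDH-siRNA+Mix). It was also lost in the fit with a replicate block (adjusted p = 0.0539) and narrowly with library-total scaling (adjusted p = 0.05005). Under PHGDH siRNA the groups overlapped (4.25, 5.01 and 4.85 FPKM against 3.70, 4.52 and 4.26 FPKM), with a change of -0.15 (95% interval -0.41 to 0.12).

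COL4A6, its head-to-head partner, stood at 1.88, 2.10 and 2.47 FPKM without Mix and at 0.748, 0.944 and 0.900 FPKM with it under control siRNA. Its groups did not overlap there, with a change of -0.75 (adjusted p = 0.140), and without the replicate 2 pair it passed in both arms (-0.75 with adjusted p = 0.000791 and -0.60 with adjusted p = 0.0110). COL4A1 stood at 5.45, 6.63 and 6.40 FPKM without Mix and at 5.03, 4.56 and 4.40 FPKM with it under control siRNA. Under PHGDH siRNA COL4A1 stood at 9.05, 8.51 and 10.2 FPKM and with Mix at 6.08, 8.17 and 6.52 FPKM. The groups did not overlap in either arm, with changes of -0.34 and -0.38 (adjusted p = 0.142 and 0.1004), and without the pair both passed (-0.34 with adjusted p = 0.0357 and -0.54 with adjusted p = 0.0140). COL4A2 overlapped in both arms, with changes of -0.38 and -0.46, and did not pass with or without the pair. The changes of these 4 genes were negative in both arms, with a median of -0.41 under control siRNA and -0.42 under PHGDH siRNA.

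Among the laminins, nidogens and heparan sulfate proteoglycans, HSPG2 and NID2 passed in 1 arm each. HSPG2 (perlecan, the large basement membrane proteoglycan) stood at 7.34, 7.48 and 8.61 FPKM in Control-siRNA and at 3.77, 4.47 and 4.76 FPKM in Control-siRNA+Mix, with no overlap. It fell by 0.73 (SE 0.166, adjusted p = 0.0196 by limma). The call was lost without replicate 2 or 3 of Control-siRNA or any 1 of the 3 Control-siRNA+Mix replicates, with adjusted p up to 0.0894. Under PHGDH siRNA HSPG2 stood at 5.27, 6.12 and 5.57 FPKM and with Mix at 2.73, 5.08 and 3.97 FPKM, again without overlap. The change of -0.46 did not pass there (adjusted p = 0.124), but did without the pair (-0.58, adjusted p = 0.0359) and with the replicate block in these groups (adjusted p = 0.0224).

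NID2 (nidogen 2) stood at 1.65, 1.87 and 1.90 FPKM in PHGDH-siRNA and at 0.427, 0.820 and 0.914 FPKM in PHGDH-siRNA+Mix, with no overlap. It fell by 0.72 (SE 0.134, adjusted p = 0.00735 by limma). The NID2 gene overlaps RTRAF on the other strand, which averaged 9.05 FPKM against 1.14 FPKM for NID2. Since use of strand in counting is not given, some reads of NID2 could belong to RTRAF. Under control siRNA NID2 stood at 1.26, 1.46 and 1.05 FPKM and with Mix at 0.709, 0.732 and 0.920 FPKM, also without overlap, with a change of -0.33 (adjusted p = 0.164). The laminin chains moved little. LAMA5 (alpha 5 chain), LAMB1 (beta 1), LAMB2 (beta 2) and LAMC1 changed by between -0.23 and 0.15 in both arms, and none passed. AGRN, at 41.9, 56.2 and 53.2 FPKM without Mix and 58.6, 58.5 and 57.5 FPKM with it under control siRNA, did not pass either (0.21, 95% interval -0.18 to 0.60).

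COL7A1, the collagen of anchoring fibrils, was higher with Mix in both arms. It stood at 14.0, 14.5 and 12.9 FPKM in PHGDH-siRNA and at 19.3, 24.2 and 18.8 FPKM in PHGDH-siRNA+Mix, without overlap. It rose by 0.55 there (SE 0.128, adjusted p = 0.0234 by limma), a call lost without replicate 1 or 3 of PHGDH-siRNA or replicate 2 of PHGDH-siRNA+Mix (adjusted p up to 0.0971). Under control siRNA it stood at 10.997, 13.4 and 14.4 FPKM and with Mix at 16.8, 17.5 and 16.9 FPKM. These groups did not overlap either, with a change of 0.38 (adjusted p = 0.0948) that passed without the replicate 2 pair (adjusted p = 0.0253).

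The fibrillar and associated collagens went in opposite directions. COL27A1 stood at 3.78, 3.76 and 4.20 FPKM in Control-siRNA and at 8.29, 9.33 and 10.1 FPKM in Control-siRNA+Mix. Under PHGDH siRNA it stood at 4.25, 5.31 and 4.51 FPKM and with Mix at 10.2, 8.09 and 11.2 FPKM. Every library with Mix was above every library without it, and COL27A1 rose 2.36-fold in mean FPKM under control siRNA (1.06 on the log2(FPKM + 1) scale, SE 0.133, adjusted p = 0.000496 by limma). Under PHGDH siRNA it rose 2.09-fold (0.92, SE 0.133, adjusted p = 0.00165). Over leaving out each library the change ran from 1.00 to 1.13 and from 0.83 to 1.04. COL12A1, a collagen that decorates fibrils, was at 3.68, 2.71 and 3.05 FPKM without Mix and at 7.17, 8.496 and 10.3 FPKM with it under control siRNA. The groups were well apart, but the change of 1.22 missed the threshold (adjusted p = 0.0546). Under PHGDH siRNA COL12A1 was at 2.49, 8.16 and 3.51 FPKM and with Mix at 5.83, 14.2 and 7.76 FPKM, so that replicate 2 was the highest library of each group and the groups overlapped. Without the pair COL12A1 rose in both arms (1.22 with adjusted p = 0.000930 and 0.96 with adjusted p = 0.0123).

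COL3A1, the fibrillar collagen of soft connective tissue, was close to 0 in every library with Mix. It stood at 0.944, 1.03 and 1.12 FPKM in Control-siRNA (116, 126 and 144 reads) and at 0.0169, 0.0479 and 0.00771 FPKM in Control-siRNA+Mix (2, 6 and 1 reads). It fell by 0.99 on the log2(FPKM + 1) scale (SE 0.204, adjusted p = 0.0120 by limma), a scale that understates the change of a gene at such levels. The call was lost without replicate 3 of Control-siRNA or replicate 3 of Control-siRNA+Mix (adjusted p = 0.0546 and 0.0506). COL3A1 passed the filter on low values only through the groups without Mix, where it was high. Its means there were 1.03 and 0.641 FPKM, against 0.0242 and 0.0283 FPKM with Mix. Without that filter the adjusted p under control siRNA was 0.0292 by limma. In PHGDH-siRNA it stood at 0.887, 0.0612 and 0.976 FPKM, where replicate 2 was near 0 without Mix, and in PHGDH-siRNA+Mix at 0.0453, 0 and 0.0397 FPKM. The change under PHGDH siRNA was -0.62 (adjusted p = 0.0920) and passed without the pair (-0.89, adjusted p = 0.00115). COL16A1, another fibril-associated collagen, stood at 6.49, 6.35 and 5.72 FPKM in PHGDH-siRNA and at 3.33, 5.38 and 3.70 FPKM with Mix, with a change of -0.50 (adjusted p = 0.0707) that passed without the pair (-0.65, adjusted p = 0.0114).

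Of the elastic microfibril genes, EFEMP1 fell under control siRNA and LTBP2 rose under PHGDH siRNA. EFEMP1 stood at 71.6, 62.6 and 62.7 FPKM in Control-siRNA and at 43.8, 47.4 and 42.8 FPKM in Control-siRNA+Mix, without overlap. It fell by 0.54 (SE 0.141, adjusted p = 0.0343 by limma). The call was lost without any 1 of the 6 libraries with control siRNA or replicate 3 of PHGDH-siRNA+Mix, and in the fit with a replicate block (adjusted p = 0.0626). Under PHGDH siRNA it stood at 62.0, 49.6 and 71.5 FPKM and with Mix at 44.5, 51.8 and 48.6 FPKM, which overlapped. The change there was -0.32 (adjusted p = 0.215), and -0.51 without the pair (adjusted p = 0.0212).

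LTBP2, a latent TGF-beta binding protein of microfibrils, stood at 1.02, 1.47 and 0.908 FPKM in PHGDH-siRNA and at 2.56, 6.47 and 2.68 FPKM in PHGDH-siRNA+Mix. Replicate 2 was the highest library of each group, yet the groups did not overlap, and LTBP2 rose by 1.12 (SE 0.241, adjusted p = 0.0162 by limma). The call was lost without replicate 1 or 3 of PHGDH-siRNA (adjusted p = 0.0562 and 0.0677). Without the pair LTBP2 rose in both arms, by 0.79 (adjusted p = 0.000201) and 0.88 (adjusted p = 0.000517). Under control siRNA its 3 libraries without Mix lay between 1.09 and 1.11 FPKM and the 3 with Mix between 2.45 and 2.88 FPKM. LTBP3 went the other way, at 9.34, 13.4 and 11.2 FPKM without Mix and 6.20, 5.97 and 5.85 FPKM with it, and fell in both arms without the pair (-0.80 in each, adjusted p = 0.00125 and 0.00509). FBLN1, the elastic fiber protein fibulin 1, also fell in both arms without the pair (-0.67 with adjusted p = 0.000484 and -0.98 with adjusted p = 0.000262), and MFAP2 rose in both (0.81 with adjusted p = 0.00951 and 0.82 with adjusted p = 0.0275). With all 12 libraries and no block none of LTBP3, FBLN1 and MFAP2 passed in either arm, and with the replicate block in the PHGDH-siRNA groups all 3 passed under PHGDH siRNA. FBN2, MFAP5, LTBP1 and LTBP4 passed in neither fit.

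Among the adhesive glycoproteins, THBS1 fell under control siRNA, and FN1 was higher with Mix. THBS1 stood at 78.2, 64.9 and 57.0 FPKM in Control-siRNA and at 38.1, 39.0 and 37.3 FPKM in Control-siRNA+Mix, without overlap. It fell by 0.78 (SE 0.204, adjusted p = 0.0363 by limma), a call lost without any 1 of the 6 libraries with control siRNA or replicate 3 of PHGDH-siRNA. Under PHGDH siRNA it stood at 100.1, 82.4 and 104 FPKM and with Mix at 97.8, 56.5 and 58.5 FPKM. Replicate 1 with Mix lay among the libraries without Mix, and the change of -0.46 did not pass (adjusted p = 0.216, or 0.253 without the pair).

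FN1 stood at 140, 114 and 107 FPKM in Control-siRNA and at 210, 241 and 233 FPKM in Control-siRNA+Mix, a 1.89-fold difference in mean without overlap. The test with all libraries did not pass (0.92, adjusted p = 0.213). Its spread is shared with the PHGDH-siRNA groups, where replicate 2 was low. Without the pair FN1 rose by 0.92 under control siRNA (adjusted p = 0.000830) and by 1.25 under PHGDH siRNA (adjusted p = 0.000667). With the replicate block it rose by 1.17 under PHGDH siRNA (adjusted p = 0.000236). FSTL1 followed the same course, from 1.42, 1.36 and 1.38 FPKM to 2.23, 2.47 and 2.48 FPKM under control siRNA. It rose without the pair by 0.51 and 0.55 (adjusted p = 0.00265 and 0.00639). TNC was at 4.04, 3.66 and 5.38 FPKM without Mix and at 5.96, 6.30 and 7.09 FPKM with it, and passed only under control siRNA without the pair (0.48, adjusted p = 0.0240). TGFBI, between 124 and 138 FPKM in all 6 libraries with control siRNA, changed by 0.07 (95% interval -0.49 to 0.63) and 0.00 (-0.56 to 0.57).

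None of the 3 tested crosslinking and processing enzymes passed with Mix in the fit of all libraries without a block. LOX (lysyl oxidase, which crosslinks collagen and elastin) was the 1 tested gene that stayed below 1 FPKM, at 0.101 to 0.219 FPKM (10 to 23 reads) in Control-siRNA and 0.432 to 0.473 FPKM (42 to 50 reads) in Control-siRNA+Mix. Under PHGDH siRNA it stood at 0.152, 0.216 and 0.155 FPKM and with Mix at 0.436, 0.984 and 0.536 FPKM. The groups did not overlap in either arm. LOX entered the test only through PHGDH-siRNA+Mix, where it was highest, and its mean there was 0.486 FPKM without replicate 2, so its calls in other fits are not read as support for a rise. LOXL2, a related oxidase, changed by 0.09 and 0.03.

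**Figure D4:**
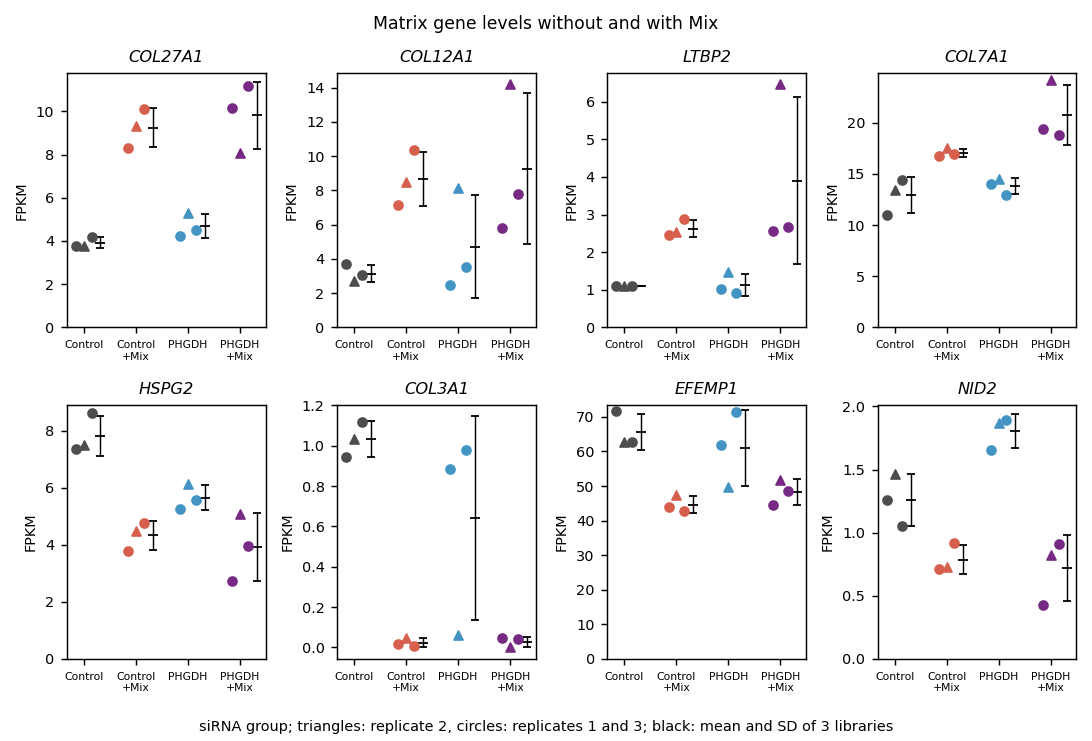
FPKM of COL27A1, COL12A1, LTBP2, COL7A1, HSPG2, COL3A1, EFEMP1 and NID2 in the 4 groups, each point a library and each bar and whisker the mean and SD of 3 libraries. COL27A1 is above 8 FPKM in all 6 libraries with Mix and below 5.4 FPKM in all 6 without it, while COL3A1 is below 0.05 FPKM in all 6 with Mix.

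Genes that fold collagen, bind the matrix or belong to the TGF-beta pathway were counted from separate lists. Under control siRNA 5.62% of all genes rose and 3.92% fell, and under PHGDH siRNA 5.22% and 3.64%. With the replicate 2 pair left out, 1616 of 14507 genes rose and 1407 fell under control siRNA (20.8% in either direction). Under PHGDH siRNA 1199 then rose and 991 fell (15.1%). Of 17 tested genes of collagen folding and secretion, 3 rose in both arms, P3H2 and P4HA2 (prolyl hydroxylases of collagen chains) and P4HB. P3H2 rose by 1.39 under control siRNA and 1.03 under PHGDH siRNA (adjusted p = 1.5e-05 and 0.000166 by limma). CRTAP, a partner of a prolyl hydroxylase, fell under control siRNA (-0.43, adjusted p = 0.0345). Without the replicate 2 pair the counts of this list were 5 up and 1 down under control siRNA and 5 up and 0 down under PHGDH siRNA. Of 18 tested matrix receptors, 6 rose and 1 fell under control siRNA and 7 rose and 1 fell under PHGDH siRNA. Without the pair these were 9 up and 3 down and 8 up and 3 down. ITGA5, the alpha chain of the main fibronectin receptor, stood at 10.3, 14.2 and 12.01 FPKM in Control-siRNA and at 59.8, 60.5 and 62.4 FPKM in Control-siRNA+Mix, and rose by 2.24 (adjusted p = 0.000266). DAG1, which encodes the laminin receptor dystroglycan, fell by 0.84 and 0.72 (adjusted p = 0.00296 and 0.00848). Of 15 tested TGF-beta pathway genes, 4 rose and 0 fell in each arm, INHBA, PMEPA1 and SMAD3 among them in both. Without the pair 6 rose under control siRNA and 4 under PHGDH siRNA. INHBA, which encodes the subunit of activin A, a ligand of the TGF-beta family, stood at 1.92, 1.67 and 1.40 FPKM in Control-siRNA and at 21.6, 23.4 and 30.4 FPKM in Control-siRNA+Mix. It rose by 3.28 under control siRNA and by 2.92 under PHGDH siRNA.

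The PHGDH siRNA was compared with the control siRNA in cells without and with Mix to find matrix genes that respond to the knockdown. No matrix gene passed in either comparison. COL4A1 was higher under PHGDH siRNA when both conditions were averaged, and ADAM19, THBS1 and COL4A2 stood higher in every library without a call. Limma called 0 of 38 genes without Mix, where 0.0412% of all tested genes passed, and 5 of 38 had an unadjusted p under 0.05 (6.41% of all genes). With Mix it called 0 of 38, where 0.0206% of all genes passed, and again 5 of 38 had an unadjusted p under 0.05 (5.72% of all genes). Voom on recovered reads also called 0 in each. No overlap between the groups was found for 8 of 38 genes in each comparison, against 10.2% and 14.3% of all genes. The median difference of the 38 genes was 0.10 and 0.12 and that of all genes 0.01 and 0.00, and without the replicate 2 pair the medians of 36 genes were 0.04 and 0.02.

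Averaged over both Mix conditions, 1 of 38 genes passed, where 0.487% of all genes did. COL4A1 lay between 5.45 and 6.63 FPKM in Control-siRNA and between 8.51 and 10.2 FPKM in PHGDH-siRNA, and with Mix between 4.40 and 5.03 FPKM and between 6.08 and 8.17 FPKM. The groups overlapped neither with nor without Mix, and COL4A1 rose by 0.50 (SE 0.0902, adjusted p = 0.0459 by limma). This test takes the libraries as independent. With same-numbered libraries averaged over the Mix conditions, 3 against 3, the adjusted p was 0.496, and with a replicate block it was 0.0836. The call was also lost without any 1 of the 10 libraries other than the replicate 2 pair (adjusted p up to 0.159). Without the pair COL4A1 rose by 0.47 (adjusted p = 0.0146). Its partner COL4A2 stood at 7.64, 12.2 and 11.1 FPKM in Control-siRNA and at 15.04, 17.4 and 12.4 FPKM in PHGDH-siRNA, with an averaged difference of 0.47 (adjusted p = 0.315). COL4A5 and COL4A6, of the other head-to-head pair, differed by 0.00 (95% interval -0.19 to 0.18) and 0.32 (-0.12 to 0.76).

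ADAM19, a membrane metalloprotease that sheds growth factor precursors, stood at 4.32, 5.05 and 4.56 FPKM in Control-siRNA and at 9.10, 5.55 and 8.86 FPKM in PHGDH-siRNA. With Mix it stood at 4.92, 5.33 and 4.98 FPKM and at 10.5, 7.0003 and 10.6 FPKM. The groups did not overlap, and replicate 2 was the lowest library under PHGDH siRNA each time. The averaged difference was 0.69 (SE 0.132, adjusted p = 0.0577 by limma). Without the pair ADAM19 rose in each comparison alone, by 0.82 without Mix (adjusted p = 0.0128) and by 0.93 with it (adjusted p = 0.00861), where 0.696% and 0.379% of all genes passed. Its gene overlaps NIPAL4 in the annotation.

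THBS1 stood at 57.0 to 78.2 FPKM in Control-siRNA and 82.4 to 104 FPKM in PHGDH-siRNA, and with Mix at 37.3 to 39.0 FPKM and 56.5 to 97.8 FPKM. The groups did not overlap, with an averaged difference of 0.67 (adjusted p = 0.0904), which passed without the pair (0.79, adjusted p = 0.0233). Without the pair 5 of 36 genes passed in the averaged comparison, against 3.39% of all genes, and the other members of that set were FSTL1 (0.35, adjusted p = 0.0267) and LAMA5, which fell by 0.47 (adjusted p = 0.0139). These averaged tests also take the libraries as independent, although same-numbered libraries of the groups with PHGDH siRNA deviated together. LAMA5, a laminin chain of adult basement membranes, was at 40.9, 43.9 and 49.3 FPKM in Control-siRNA and at 32.5, 50.8 and 29.9 FPKM in PHGDH-siRNA, so replicate 2 alone lay above all control libraries. The folding, receptor and TGF-beta lists held 0 calls by limma in either comparison, with 2 of 17, 2 of 18 and 4 of 15 genes at an unadjusted p under 0.05 without Mix (6.41% of all genes) and 1, 2 and 2 with it (5.72%). Without the pair 1 TGF-beta pathway gene was called without Mix, against 0.696% of all genes. Averaged, and again without the pair, 4 of that list rose and 1 gene fell in each of the other lists, against 3.39% of all genes.

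**Figure D5:**
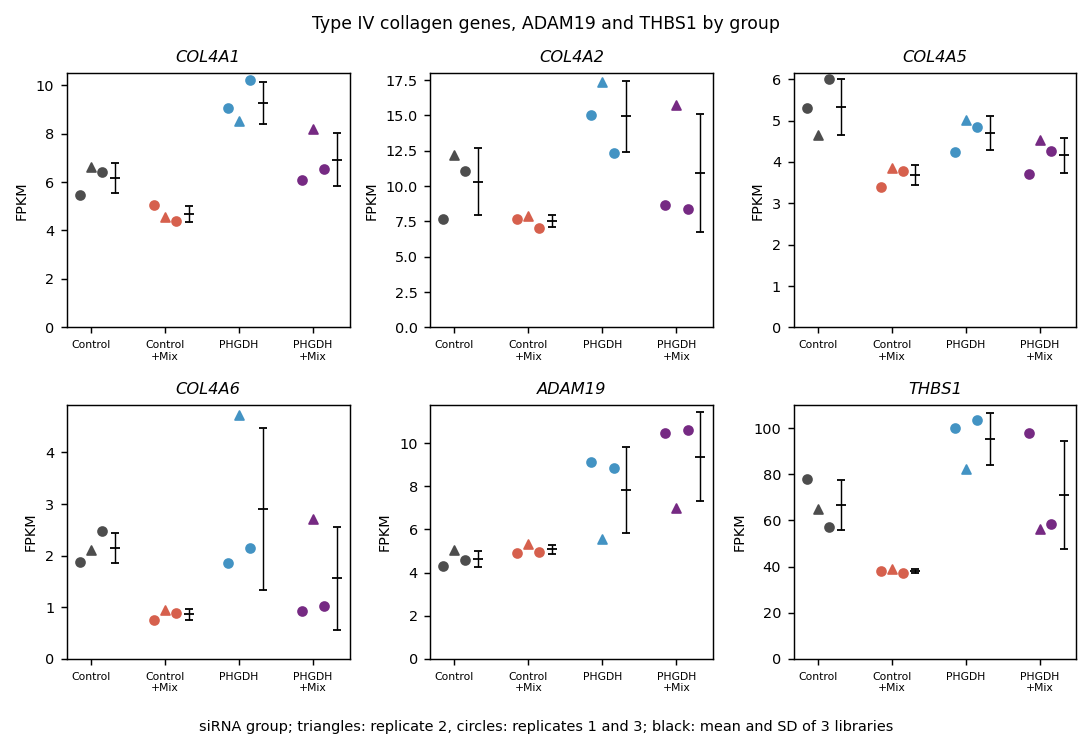
FPKM of the head-to-head pairs COL4A1 and COL4A2 and COL4A5 and COL4A6, and of ADAM19 and THBS1, in the 4 groups, each point a library and each bar and whisker the mean and SD of 3 libraries. The PHGDH-siRNA points of COL4A1, COL4A2, ADAM19 and THBS1 lie above the control points of the same Mix condition, and those of COL4A5 and COL4A6 overlap them.

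Whether Mix acted differently under the PHGDH siRNA was tested as the difference between the changes in the 2 arms. Limma called 0 of 38 matrix genes and 0 of 14577 genes (0%), and 0 matrix genes had an unadjusted p under 0.05, against 1.72% of all genes. Voom called 0 as well, as did limma without the replicate 2 pair and with the replicate block. The differences ran from -0.38 for NID2 (95% interval -0.80 to 0.04) to 0.37 for COL3A1 (-0.27 to 1.00). Intervals were widest for SPARC (-3.12 to 2.67) and MFAP2 (-2.36 to 2.48), and for these genes a difference of several-fold between the arms was not detectable.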

How the data were processed

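RNA-seq libraries of HaCaT cells (12, in 4 groups of 3) were read from the authors' deposited table of FPKM per gene. The submitters' processing notes name, without roles, the genome build hg38 and the tools HISAT2 2.0.5, CASAVA and featureCounts 1.5.0-p3, and counting by strand is not given in the sources used here. The table also holds each gene's length, per the file header. FPKM times length, divided by a step estimated for each library, gave whole reads for 100% of values up to 200 reads (tolerance 0.05), so 16403845 to 20901128 reads per library were recovered. The step is not set by the library total: median-of-ratios factors of the deposited values are all 1, so levels are relative to the median gene. Depth limits genes under about 1 FPKM most.

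The 14577 genes whose mean reached 0.5 FPKM in at least 1 group were fitted as log2(FPKM + 1) with limma 3.58.1 (R 4.3.3, trend and robust, 1 mean per group, 8 residual degrees of freedom). Tests were two-sided and p-values were Benjamini-Hochberg adjusted over all 14577 genes (threshold 0.05). A fold change on this scale understates that of low genes. The fit was also run on simulated data with independent libraries and no replicate 2 that stood apart. That run therefore does not cover the spread seen in the groups with PHGDH siRNA. Members and lists were chosen with earlier results of these data known. Named are members past the threshold, members at 10 FPKM or more in a group, the head-to-head COL4A pairs and up to 4 genes per pathway list by adjusted p (1 gene of these lists is not reported here); members called only in an alternative, and those apart in replicate 2, were chosen after their values were seen. Alternatives were pseudocount 0.1, no filter, other scalings, limma's voom on recovered reads, a replicate block, fits of only the groups compared, and leaving out libraries. Replicate numbers were checked for pairing: within the PHGDH-siRNA groups same-numbered libraries deviated together (correlations 0.690, 0.775 and 0.459), while over all 18 pairs of groups and numbers 5 exceeded 0.1. Of the 43 genes, 33 overlap another gene in GENCODE 29, 12 of them a gene at 10% or more of their own level. COL4A1 with COL4A2, ADAM19 with NIPAL4 and NID2 with RTRAF are among these 12, whose values are uncertain to that extent. Promoter sequences came from RefSeq, GRCh38.p14.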

Additional observations from a re-analysis of the deposited data

How the results depend on the processing

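The count of matrix genes past the threshold moved with the processing more than any single direction did, and no called gene reversed under any alternative run. Under control siRNA, 6 genes passed with Mix, against 2 without the filter on low values, 14 when only the groups compared were fitted, 17 without the replicate 2 pair and 1 to 9 on leaving out 1 library. Calls over all genes moved as well, from 1391 to 939, 2690 and 3023 in these settings, and to between 658 and 1780 on leaving out 1 library. Under PHGDH siRNA, 4 passed, against 2 without the filter, 7 by voom, 0 with only the groups compared, 16 without the pair and 2 to 10 on leaving out 1 library. Over all genes these were 1291 against 761, 1516, 254 and 2190, and between 665 and 1644 on leaving out 1 library. With the replicate block the counts were 5 and 4 (1293 and 1188 over all genes). With the block in the PHGDH-siRNA groups alone the count under PHGDH siRNA was 17 (3284 over all genes). That block changed no call of the difference between arms. The PHGDH siRNA gave 0 calls in each Mix condition, against 1 in each without the pair. Over all genes the calls went from 6 to 101 without Mix and from 3 to 55 with it. Those of the averaged comparison went from 71 to 492. Averaged over both, 1 passed, against 0 without the filter, 0 with the replicate block, 0 with same-numbered libraries averaged, 2 by voom, 2 with library-total scaling, 5 without the pair and 0 to 2 on leaving out 1 library. The difference between arms gave 0 in every setting run. Without the filter more genes were adjusted for, and fits of only the groups compared used fewer libraries. The cause of the change in count was not tested for any setting. Median-of-ratios factors of the deposited values were all 1, so that scaling changed nothing. Fits of only the groups compared were not run for the averaged and arm-difference tests, which use all groups. Library-total scaling, the block within the PHGDH-siRNA groups and the averaging of same-numbered libraries were chosen after seeing the data. The replicate 2 pair was left out because its libraries stood apart in these same data, so calls without it also depend on a choice made from the data. Reads limit COL3A1, LOX, SPARC and the 5 untested genes.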
